A study of Mus musculus with 16 samples.

Results

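Neutrophil genes were followed from immature to mature stages in cortical bone of the mouse femur. The genes were chosen by symbol from a list of 35 that covers transcription factors of the precursors, granule proteins and genes of mature cells, and 26 of the 35 were found among 36829 features. Elane, Mpo, Prtn3, Cxcr2, Cebpe, Cd177, Itgb2l and Padi4 were not analysed here, and Mcemp1 was found only under an older symbol and is described apart from the 26. Of the early granule genes Ctsg was present, of the secondary granule genes all 4, and of the late genes Csf3r, Il1b and Retnlg. All 26 passed the filter on low values, as did 16973 features in all. The symbol Rnf135 is carried by 3887 features, 1108 of those that passed the filter, and no gene was assigned to these rows, so the 26 are the genes with a row under their own symbol.

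Female C57Bl/6J mice aged 11 weeks either bore weight normally (control mice, n = 8) or had their hindlimbs unloaded for 7 days (HLU mice, n = 8). Marrow was flushed from the femur before RNA was isolated from the cortical bone, and each mouse gave 1 library. Values were RPKM, read counts scaled to gene length and library size, which allow genes to be compared per length. The reads behind each library, recovered from the RPKM steps, ranged from 7067512 to 21363584, and in the smallest library 3 reads on a gene of 1 kilobase equal 0.424 RPKM.

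Neutrophils form in bone marrow from granulocyte precursors that divide, and they stop dividing as they mature. Early precursors make the serine proteases of the primary granules, later precursors make the proteins of the secondary granules, and mature cells switch on receptors and inflammatory genes that serve release into blood and responses in tissue. Marrow that remains in the channels and on the inner surface of flushed bone can carry these cells.

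One property of the libraries has to be given before the results. The GC gradient of a library is the median log2 deviation of the features in the highest quartile of transcript GC content minus that of the lowest quartile, over 14774 features. It was -0.83 in Control 1, -0.85 in Control 4 and -1.01 in HLU 4, and between -0.37 and 0.69 in the other libraries. Its group medians were 0.021 for control mice and 0.13 for HLU mice. The results on neutrophil genes are therefore given also without these 3 libraries and after an adjustment for GC content, both chosen after seeing the data.

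**Figure D1:**
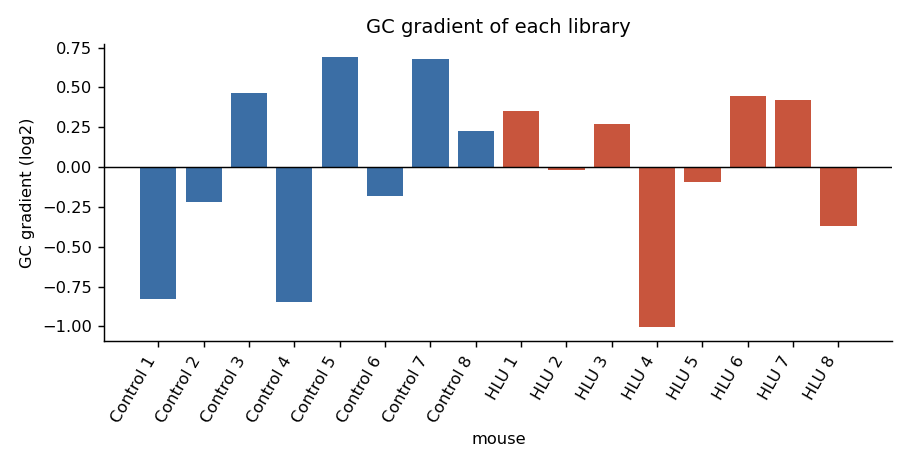
GC gradient of each library in log2 units, with 1 bar per mouse and color by group. Control 1, Control 4 and HLU 4 have the lowest bars.

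Neutrophil transcripts were among the most abundant in the bone samples of both groups. By mean RPKM, S100a8 ranked 5, S100a9 6, Ngp 11 and Lyz2 12 among all features. The lowest, median and highest share of summed RPKM held by the 26 genes was 6.39%, 9.11% and 10.4% in control mice and 4.48%, 7.93% and 13.1% after HLU. HLU 2 was highest and HLU 7 lowest, so the HLU mice enclosed the control mice. As a share of reads the genes held 2.30% to 3.74% in control mice and 1.72% to 4.79% after HLU. In bulk bone, fewer neutrophils and less RNA per neutrophil cannot be told apart.

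Of the 26 neutrophil genes, 0 were higher and 0 lower in HLU mice at an unadjusted p under 0.05 and at least 1.2-fold in limma, whereas over all features 1.11% were higher and 4.76% lower by that rule. At an adjusted p under 0.1, limma called 0 of the 26 genes and 0 of all 16973 features. The log2 fold change was negative for 23 of the 26 genes, with a median of -0.15, and over all features it was negative for 67.9% with a median of -0.10. Without the features under the symbol Rnf135, 1.09% of 15865 features were higher and 4.65% lower by the unadjusted rule, with a median of -0.10. These signs moved with scaling: the median over all features was -0.018 after median-of-ratios rescaling and 0.034 after rescaling to summed RPKM without mitochondrial genes, where the medians of the 26 genes were -0.065 and -0.010. Rescaling by median-of-ratios also gave 375 higher and 401 lower features in place of 188 and 808. Without Control 1, Control 4 and HLU 4 the median of the 26 genes was -0.059, and after GC adjustment it was -0.057, with 0 genes called by either rule, while the medians over all features were -0.093 and -0.0060. The median of the 26 genes was thus below that of all features with all libraries and above it without these 3. Without these steps, leaving out 1 mouse at a time moved the median of the 26 genes between -0.26 (without HLU 2) and -0.029 (without HLU 7). For 24 of the 26 genes, leaving out some single mouse moved the log2 fold change by over 1.5 times or turned its sign.

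**Figure D2:**
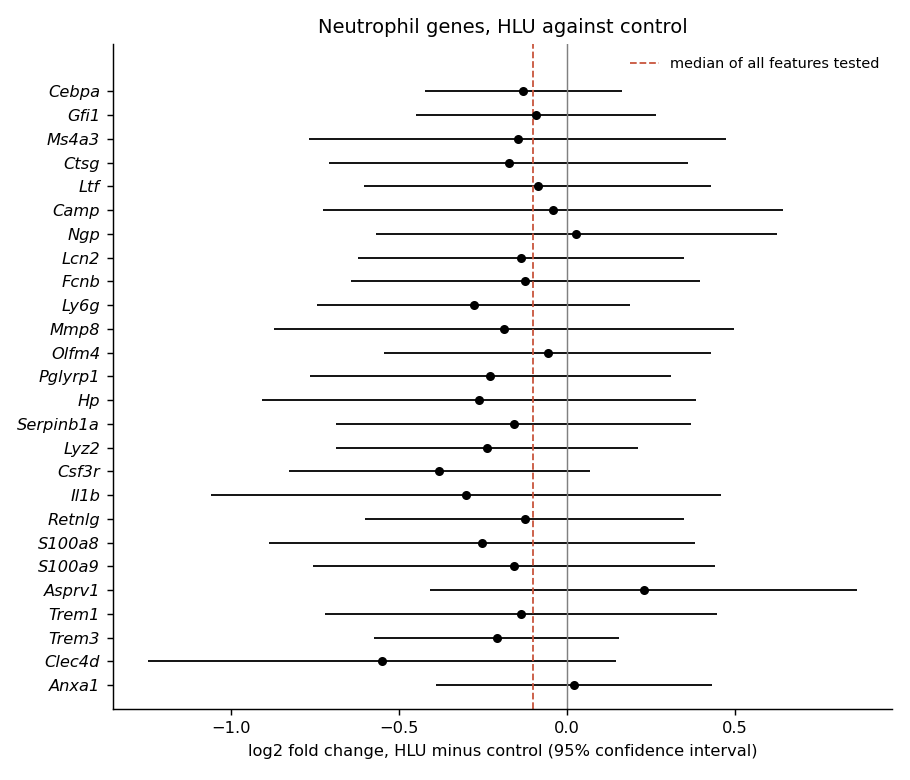
Log2 fold change of the 26 neutrophil genes, HLU minus control, as points with 95% confidence intervals as bars; the dashed line is the median of all features tested at -0.10. Every interval includes 0, and those of Il1b and Clec4d reach below -1.

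The transcription factors and membrane gene of the precursors come before the granule genes. Cebpa, a factor that directs progenitors to the granulocyte lineage, had group medians of 11.3 RPKM in control mice and 10.1 RPKM after HLU, with a log2 fold change of -0.13. Gfi1, a repressor needed for neutrophil differentiation, had medians of 4.18 RPKM in control mice and 3.78 RPKM after HLU and a log2 fold change of -0.092. Ms4a3, a membrane protein of granulocyte and monocyte progenitors, had medians of 59.1 RPKM in control mice and 56.2 RPKM after HLU and a log2 fold change of -0.15. For all 3 genes the groups overlapped. Exons of Cebpa and Gfi1 overlap genes on the opposite strand, so their reads are uncertain without strand.

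Ctsg encodes cathepsin G, a serine protease of the primary granules, and was the early granule gene present. Its lowest, median and highest values were 105, 166 and 292 RPKM in control mice and 78.2, 154 and 249 RPKM after HLU. The groups overlapped, with 1 HLU mouse below every control mouse and 4 of 8 HLU mice below the control median. HLU 2 was highest and HLU 7 lowest among HLU mice. HLU against control gave a log2 fold change of -0.17 with a 95% confidence interval of -0.71 to 0.36 (unadjusted p = 0.502, limma adjusted p = 0.865, exact permutation p = 0.528). It was -0.28 without Control 3 and -0.035 without HLU 7, the lowest and highest values on leaving out 1 mouse. Without the 3 libraries of steepest gradient the log2 fold change was -0.077, and after GC adjustment -0.068.

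Of the stage genes, Ngp of the secondary granules had the highest level. Ltf encodes lactoferrin, an iron-binding protein, and its lowest, median and highest values were 653, 836 and 1076 RPKM in control mice and 446, 739.9 and 1466 RPKM after HLU. 2 HLU mice lay above every control mouse and 3 below, with HLU 3 highest and HLU 7 lowest. HLU against control gave a log2 fold change of -0.087 with a 95% confidence interval of -0.60 to 0.43 (unadjusted p = 0.725, limma adjusted p = 0.933, exact permutation p = 0.732). Camp encodes the cathelicidin precursor, an antimicrobial peptide, with values of 354, 836 and 1319 RPKM in control mice and 266, 822 and 1593 RPKM after HLU. HLU 2 was above every control mouse and HLU 4 below every one, and Control 4 was the lowest control mouse. The comparison gave a log2 fold change of -0.042 with a 95% confidence interval of -0.73 to 0.64 (unadjusted p = 0.899, limma adjusted p = 0.976, exact permutation p = 0.907).

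Ngp encodes neutrophilic granule protein, and its lowest, median and highest values were 2998, 3948 and 6259.6 RPKM in control mice and 2233, 3814 and 8984 RPKM after HLU. 2 HLU mice were above and 2 below every control mouse, and 4 of 8 were below the control median. The comparison gave a log2 fold change of 0.028 with a 95% confidence interval of -0.57 to 0.62 (unadjusted p = 0.924, limma adjusted p = 0.980, exact permutation p = 0.924). Lcn2 encodes lipocalin 2, which binds bacterial siderophores, and had values of 127, 176 and 251 RPKM in control mice and 85.5, 157 and 291 RPKM after HLU. 2 HLU mice were above and 2 below every control mouse, HLU 2 being highest and HLU 4 lowest. The comparison gave a log2 fold change of -0.14 with a 95% confidence interval of -0.62 to 0.35 (unadjusted p = 0.559, limma adjusted p = 0.883, exact permutation p = 0.579). The median log2 fold change of the 4 genes was -0.065, and it was -0.019 without the 3 libraries of steepest gradient and 0.034 after GC adjustment. It was -0.20 without HLU 2, and its sign turned without HLU 4 (0.076) and without HLU 7 (0.039), and with median-of-ratios rescaling (0.022), quantile normalization (0.0082) and rescaling to summed RPKM without mitochondrial genes (0.077). The signs of Ltf, Camp and Lcn2 turned with rescaling to summed RPKM without mitochondrial genes, to 0.054, 0.099 and 0.0045.

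Promoter sequences of Ngp, Ltf and Camp are shown because these secondary granule genes lie on the same chromosome and Ltf and Ngp varied together across mice. They are the 250 bases before the start in RefSeq, build GRCm38.p6, at chr9:110419558-110419807 (plus strand) for Ngp, chr9:111019042-111019291 (plus strand) for Ltf and chr9:109849457-109849706 (minus strand) for Camp. Capitals mark TTNNGNAA, the letters of a C/EBP binding motif, searched on both strands.
Ngp: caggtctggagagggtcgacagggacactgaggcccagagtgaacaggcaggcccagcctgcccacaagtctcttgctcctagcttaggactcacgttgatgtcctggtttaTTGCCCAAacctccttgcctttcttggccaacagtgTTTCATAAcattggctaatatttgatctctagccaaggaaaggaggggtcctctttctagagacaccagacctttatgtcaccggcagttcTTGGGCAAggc
Ltf: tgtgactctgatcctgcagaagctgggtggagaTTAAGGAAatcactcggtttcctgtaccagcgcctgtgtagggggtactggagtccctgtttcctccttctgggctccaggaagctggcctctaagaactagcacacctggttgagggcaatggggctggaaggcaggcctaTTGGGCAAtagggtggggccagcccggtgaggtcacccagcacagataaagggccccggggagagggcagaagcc
Camp: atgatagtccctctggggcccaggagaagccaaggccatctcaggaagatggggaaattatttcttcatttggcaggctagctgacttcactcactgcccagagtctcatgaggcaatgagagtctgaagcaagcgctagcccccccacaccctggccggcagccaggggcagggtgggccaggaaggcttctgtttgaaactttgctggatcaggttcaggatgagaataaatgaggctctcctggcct
The window held 3 matches in Ngp, 2 in Ltf and 0 in Camp. RefSeq gave 25 promoters for 23 of the 26 genes, of which 18 promoters held a match, against 36.8% of all 32851 promoters of the same length. A match is a description of letters and not a measured binding site.

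The late genes had the lowest median log2 fold change of the stages, at -0.30, which lay between -0.47 (without HLU 2) and -0.11 (without Control 1, where the early granule gene had -0.10) on leaving out 1 mouse. With all mice, this median of 3 late genes is the value of Il1b, and the early stage rests on Ctsg alone. The median was -0.16 for 7 other genes of mature cells and -0.21 for 8 other granule and precursor genes, so a larger decrease did not go with maturity throughout. Csf3r encodes the receptor for G-CSF, which drives neutrophil production and release, and its lowest, median and highest values were 25.6, 29.1 and 44.2 RPKM in control mice and 15.2, 20.7 and 42.8 RPKM after HLU. 5 of 8 HLU mice lay below every control mouse, while HLU 2, HLU 3 and HLU 8 lay within the control range. The comparison gave a log2 fold change of -0.38 with a 95% confidence interval of -0.83 to 0.068 (unadjusted p = 0.0909, limma adjusted p = 0.744, exact permutation p = 0.111). Without HLU 2 the log2 fold change was -0.50 (limma unadjusted p = 0.0183), and without HLU 3 it was -0.49 (limma unadjusted p = 0.0257); both are past the unadjusted threshold, which the value with all mice is not. On the other side, it was -0.29 without HLU 4 (limma unadjusted p = 0.182), the highest value on leaving out 1 mouse, and -0.24 after rescaling to summed RPKM without mitochondrial genes. After GC adjustment it was -0.28.

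Il1b encodes the cytokine interleukin 1 beta, and its values were 2.75, 6.46 and 18.5 RPKM in control mice and 3.20, 5.47 and 13.4 RPKM after HLU. The groups overlapped, with Control 1 the highest control mouse and HLU 2 far above the other HLU mice. The comparison gave a log2 fold change of -0.30 with a 95% confidence interval of -1.06 to 0.46 (unadjusted p = 0.415, limma adjusted p = 0.833, exact permutation p = 0.447). Exons of Il1b overlap an antisense gene, so its reads are uncertain without strand. Retnlg encodes a resistin-like protein of mature neutrophils, with values of 494, 890.0 and 1047 RPKM in control mice and 445, 686 and 1163 RPKM after HLU. 3 HLU mice were above every control mouse and HLU 7 was below every one. The comparison gave a log2 fold change of -0.13 with a 95% confidence interval of -0.60 to 0.35 (unadjusted p = 0.583, limma adjusted p = 0.890, exact permutation p = 0.584). For the 3 late genes the median was -0.12 without the 3 libraries of steepest gradient and -0.19 after GC adjustment.

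The balance between stages in a mouse can be read from ratios within its library. The log2 ratio of Ctsg to Ltf had a lowest, median and highest value of -2.82, -2.19 and -1.88 in control mice and -2.73, -2.28 and -2.10 in HLU mice. For Csf3r to Ltf these were -5.22, -4.74 and -4.28 in control mice and -5.20, -5.11 and -4.78 in HLU mice. Both ratios overlapped between groups, and they are descriptions with no test.

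**Figure D3:**
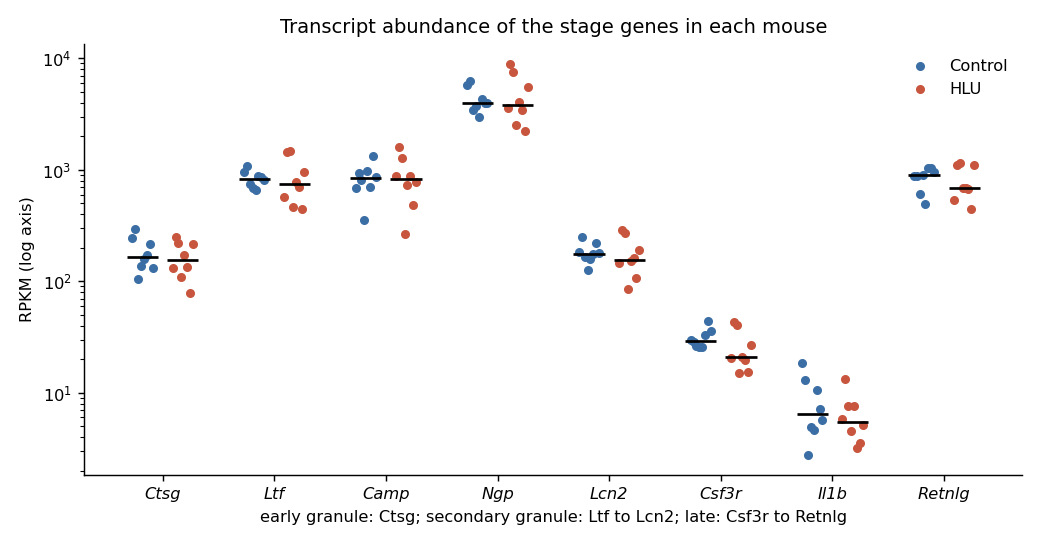
RPKM of the 8 stage genes on a log axis, with 1 point per mouse, 8 mice per group, and the group median as a black line. The groups overlap for every gene shown, and HLU mice spread beyond both ends of the control mice for Ltf, Camp, Ngp, Lcn2 and Retnlg.

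Other granule and precursor genes were described by group medians. Lyz2, the lysozyme of myeloid cells, had 2039 RPKM in control mice and 1725 RPKM after HLU (log2 fold change -0.24). 3 HLU mice were above and 4 below every control mouse. Ly6g, a surface marker of neutrophils, had 123 RPKM in control mice and 87.1 RPKM after HLU (log2 fold change -0.28). Mmp8, the neutrophil collagenase, had 213 RPKM in control mice and 163 RPKM after HLU (log2 fold change -0.19). These genes overlapped between groups. Hp, haptoglobin, had 192 RPKM in control mice and 156 RPKM after HLU (log2 fold change -0.26). Pglyrp1, a peptidoglycan recognition protein, had 150.3 RPKM in control mice and 119 RPKM after HLU (log2 fold change -0.23). Fcnb, a ficolin that binds microbial sugars, had 90.5 RPKM in control mice and 77.7 RPKM after HLU (log2 fold change -0.12). Hp, Pglyrp1 and Fcnb were lowest in Control 4 among control mice and in HLU 4 among HLU mice. Serpinb1a, an inhibitor of neutrophil proteases, had 76.5 RPKM in control mice and 71.4 RPKM after HLU (log2 fold change -0.16). Olfm4, olfactomedin 4 of a neutrophil subset, had 16.3 RPKM in control mice and 17.4 RPKM after HLU (log2 fold change -0.057). Reads of Lyz2, Ly6g and Serpinb1a are uncertain because each has close copies in the genome, and an exon of Olfm4 overlaps another gene.

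S100a8 and S100a9, which together form calprotectin, had the highest levels of the neutrophil genes. S100a8 had 6692, 12030 and 15588 RPKM in control mice and 4438, 10528 and 16313 RPKM after HLU as lowest, median and highest values. 2 HLU mice were above and 2 below every control mouse, with HLU 8 highest and HLU 7 lowest. S100a8 had a log2 fold change of -0.25. It was -0.50 after quantile normalization and -0.11 after rescaling to summed RPKM without mitochondrial genes, and from -0.37 without HLU 8 to -0.098 without HLU 7. S100a9 had medians of 11174 RPKM in control mice and 9239 RPKM after HLU and a log2 fold change of -0.16. HLU 2 was above every control mouse for S100a9 and HLU 7 below every one.

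Among the other genes of mature cells, Clec4d, a lectin receptor, had the lowest log2 fold change of the 26 genes. Its values were 10.3, 26.2 and 34.7 RPKM in control mice and 7.60, 16.6 and 33.6 RPKM after HLU. 2 HLU mice were below every control mouse and 6 of 8 were below the control median. The log2 fold change was -0.55 (limma unadjusted p = 0.115), and without Control 5 and without HLU 2 in turn it was -0.72 and -0.70 (limma unadjusted p = 0.0342 and 0.0441). It was -0.40 without HLU 6 (limma unadjusted p = 0.233), the highest value on leaving out 1 mouse, and -0.41 after rescaling to summed RPKM without mitochondrial genes. Asprv1, a retroviral-like protease, had the highest log2 fold change, 0.23, with medians of 5.08 RPKM in control mice and 6.65 RPKM after HLU. Control 7 was the highest mouse for Asprv1 and the groups overlapped. Its log2 fold change lay between 0.11 (without Control 4) and 0.42 (without Control 7) on leaving out 1 mouse. Trem1 and Trem3, receptors that amplify inflammatory signals, had log2 fold changes of -0.14 and -0.21, with medians of 6.24 RPKM in control mice and 5.51 RPKM after HLU for Trem1 and 53.9 RPKM in control mice and 44.7 RPKM after HLU for Trem3. Anxa1, annexin A1, which limits neutrophil recruitment, had medians of 181 RPKM in control mice and 184 RPKM after HLU and a log2 fold change of 0.020. Mcemp1, listed under the symbol 1810033B17Rik, had medians of 103 RPKM in control mice and 82.9 RPKM after HLU and a log2 fold change of -0.21.

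The HLU mice differed among themselves more than the control mice did for most of these genes. The SD of log2 values was larger in HLU mice for 21 of the 26 genes, and for 53.7% of all features tested. Its median over the 26 genes was 0.43 for control mice and 0.61 for HLU mice, against 0.41 and 0.43 over all features. The HLU range enclosed the control range for 16 of the 26 genes. HLU 2 was the highest HLU mouse for 18 genes and HLU 7 the lowest for 14. A larger SD in HLU mice was found also for 10 of 10 genes of dividing cells, 7 of 8 megakaryocyte and platelet genes and 8 of 12 erythroid genes. It was found for 7 of 11 monocyte and macrophage genes, 6 of 9 T and NK cell genes and 4 of 11 B cell genes. It was found for 1 of 9 eosinophil, 1 of 7 basophil and mast cell, 1 of 12 osteoblast and osteocyte, 3 of 7 osteoclast and 2 of 5 adipocyte genes. The 26 genes varied together across mice, so these are not counts of independent genes. The difference in spread was not tested.

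Covariation across the 16 mice was measured after subtracting each group's mean, and 4 relations were tested and adjusted together. Ltf and Ngp, both of the secondary granules, gave Pearson r = 0.97 (permutation p = 1e-05, adjusted p = 4e-05) and Spearman rho = 0.95 (permutation p = 1e-05, adjusted p = 4e-05), the smallest p that 100000 permutations can give before adjustment. Without HLU 2 and HLU 3, the mice farthest from the median of Ltf on the x axis, r was 0.95, and it was 0.94 among control mice and 0.98 among HLU mice. Ngp and Alas2, an enzyme of heme synthesis in red cell precursors, gave Pearson r = 0.86 (permutation p = 0.000290, adjusted p = 0.000580) and Spearman rho = 0.83 (permutation p = 0.000710, adjusted p = 0.00142). For this pair r was 0.77 without HLU 2 and HLU 3, 0.47 among control mice and 0.96 among HLU mice.

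Ngp and Cd79a, a B cell receptor subunit, gave Pearson r = 0.68 (permutation p = 0.00943, adjusted p = 0.0126) and Spearman rho = 0.59 (permutation p = 0.0340, adjusted p = 0.0453). Here r was 0.51 without HLU 2 and HLU 3, 0.035 among control mice and 0.92 among HLU mice, and the difference between groups was not tested. Ngp and Col1a1, the collagen of bone matrix, gave Pearson r = -0.32 (permutation p = 0.260, adjusted p = 0.260) and Spearman rho = -0.24 (permutation p = 0.375, adjusted p = 0.375). For this pair r was -0.39 without HLU 2 and HLU 3, -0.80 among control mice and -0.11 among HLU mice. After GC adjustment the r of the 4 pairs was 0.97, 0.84, 0.66 and -0.24 in the same order.

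Genes of different stages are described without a test, since these pairs were named after values were seen. Ctsg and Ngp had r = 0.88 over the 16 mice, with 0.79 among control mice and 0.96 among HLU mice. Ngp and Csf3r had r = 0.82, with 0.14 among control mice and 0.99 among HLU mice. Ctsg and Csf3r had r = 0.69, with 0.27 and 0.90 in the same order. The values involving Csf3r were thus low among control mice, and the differences between groups were not tested. Over all 325 pairs of the 26 genes the median r was 0.72. Within the secondary granule genes, Camp and Ngp had r = 0.63 and Spearman rho = 0.40, with r = 0.0072 among control mice and 0.85 among HLU mice. Camp and Ltf had r = 0.71, with 0.29 and 0.84 in the same order. S100a8 and S100a9 had r = 0.96 and Camp and Hp r = 0.95. Camp and S100a8 had r = 0.030, with -0.54 among control mice and 0.30 among HLU mice, which have opposite signs; this difference was not tested either.

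**Figure D4:**
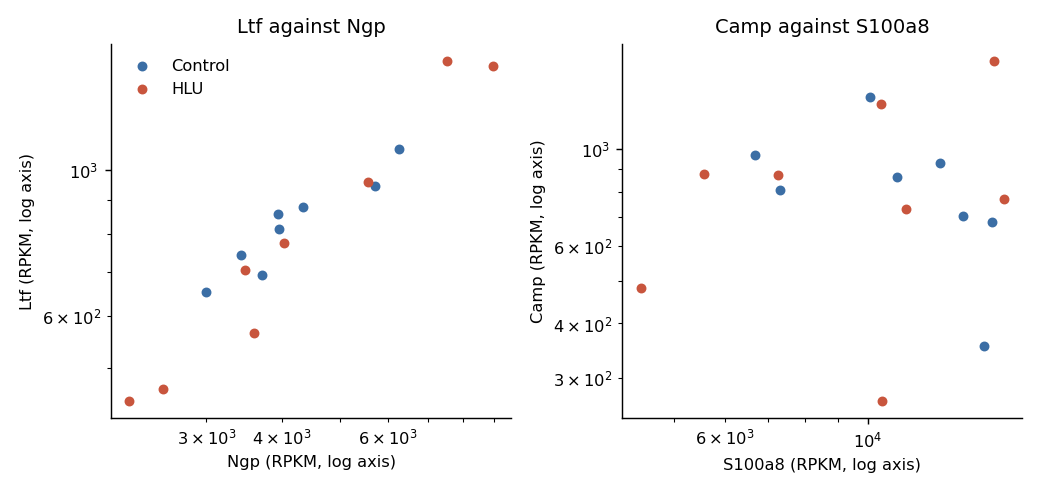
RPKM of Ltf against Ngp (left) and of Camp against S100a8 (right) on log axes, with 1 point per mouse and color by group. Mice high for Ltf are high for Ngp, with r = 0.97 after subtracting group means, and for Camp and S100a8 r is -0.54 among control mice and 0.30 among HLU mice.

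The GC content of a neutrophil transcript went with how it varied among libraries. The transcript of S100a8 has 44.9% GC and that of Camp 54.2%. The first 120 coding bases of each, from GENCODE, are shown to make this difference visible, with G and C in capitals.
S100a8: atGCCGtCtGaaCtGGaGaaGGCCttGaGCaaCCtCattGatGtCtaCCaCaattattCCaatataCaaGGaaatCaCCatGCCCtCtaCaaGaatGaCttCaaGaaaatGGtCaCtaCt
Camp: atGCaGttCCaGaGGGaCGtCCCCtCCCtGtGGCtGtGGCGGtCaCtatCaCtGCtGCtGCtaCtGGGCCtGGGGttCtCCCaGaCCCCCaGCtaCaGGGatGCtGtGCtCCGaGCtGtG
These stretches hold 41.7% and 63.3% GC, and the whole coding sequences 41.6% and 54.7%, so the stretches differ more than the genes do. With the GC gradient of the libraries, S100a8 had r = -0.68 and Camp r = 0.64 across the 16 mice. All 6 neutrophil genes in the lowest quartile of GC content had a negative r with the gradient, and all 8 in the highest quartile had a positive r. The gradient is made from these quartiles, and over all features 88.1% of the lowest quartile had a negative r and 93.3% of the highest a positive r. Across the 26 genes, which share the same libraries and are not independent, GC content and r with the gradient had a Spearman rho of 0.91. After GC adjustment, Camp and S100a8 had r = 0.37, and the median over all pairs was 0.75. The part of the gradient in the differences between mice was not tested further.

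**Figure D5:**
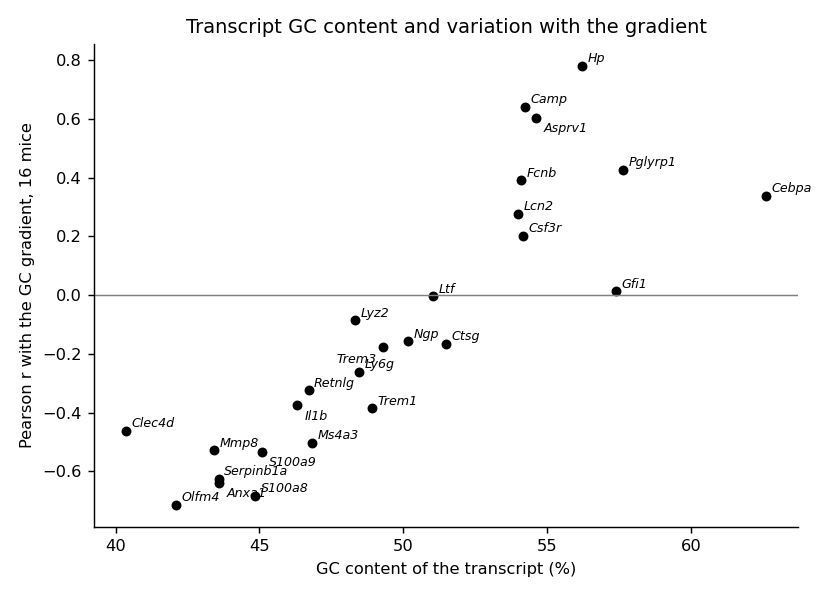
Pearson r of each of the 26 neutrophil genes with the GC gradient of the libraries over 16 mice (vertical) against the GC content of its transcript in percent (horizontal). Low-GC genes such as S100a8 lie below 0 and high-GC genes such as Camp and Hp above 0.

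Wider lists of genes tied to neutrophil functions held 67 genes, of which 57 were tested. Not all are particular to neutrophils, and Mmp9 is also in the osteoclast list. Of the 57 genes, 0 were higher and 2 lower in HLU mice by the unadjusted rule in limma, against 1.11% higher and 4.76% lower over all features. By the adjusted rule, 0 passed. The count of lower genes was 8 without HLU 2, 7 without HLU 3, 5 without HLU 8, 4 without Control 4 and 4 without the smallest libraries, Control 2 and HLU 5. It was 1 after rescaling to summed RPKM without mitochondrial genes, and otherwise 2 or 3 in the alternatives run. Over all features, lower calls numbered 808 with all mice and no rescaling, 1385 without HLU 2 and 344 after that rescaling. On leaving out 1 mouse at a time they lay between 474 and 1385. The median log2 fold change was -0.12 for 5 genes of the NADPH oxidase, -0.25 for 11 granule enzymes and proteins, and -0.26 for 11 genes of G-CSF signalling and myeloid transcription. It was -0.31 for 8 genes of adhesion and migration, -0.19 for 11 sensing receptors and -0.33 for 11 late cytoplasmic and signalling genes. The medians of the 6 lists lay between -0.25 and -0.035 after median-of-ratios rescaling, -0.20 and 0.022 after quantile normalization, -0.19 and 0.019 after rescaling to summed RPKM without mitochondrial genes and -0.23 and -0.038 after GC adjustment of the 54 genes with a GC value, the NADPH oxidase genes being highest in each. Myc, a transcription factor of dividing precursors, had 3.46, 4.32 and 5.99 RPKM in control mice and 2.13, 3.05 and 4.62 RPKM after HLU as lowest, median and highest values. The groups overlapped, with 5 of 8 HLU mice below every control mouse. The comparison gave a log2 fold change of -0.49 with a 95% confidence interval of -0.83 to -0.16 (unadjusted p = 0.00596, limma adjusted p = 0.744, exact permutation p = 0.00730). Over the alternatives, leaving out single mice included, its log2 fold change lay between -0.57 and -0.36. Ifitm1, an interferon-induced membrane protein, had 18.7, 24.6 and 30.6 RPKM in control mice and 14.3, 17.5 and 26.4 RPKM after HLU. The groups overlapped, with 7 of 8 HLU mice below every control mouse. The comparison gave a log2 fold change of -0.42 with a 95% confidence interval of -0.71 to -0.14 (unadjusted p = 0.00581, limma adjusted p = 0.744, exact permutation p = 0.00730). After rescaling to summed RPKM without mitochondrial genes, the log2 fold change of Ifitm1 was -0.28 (limma unadjusted p = 0.0575).

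Markers of other cells in bone and marrow were measured beside the neutrophil genes. For 12 erythroid genes, 4 were lower by the unadjusted rule, which called 4.76% of all features lower and 1.11% higher, and their summed level had a lowest, median and highest value of 3155, 3949.7 and 8833 RPKM in control mice and 1719, 2683 and 4599.6 RPKM after HLU; the most abundant was Hbb-b2 at 1388 ± 658 RPKM in control mice and 856 ± 376 RPKM after HLU (mean ± SD, n = 8 per group). For 8 megakaryocyte and platelet genes, 5 were lower, with sums of 999, 1403 and 1689 RPKM in control mice and 431, 815 and 1439 RPKM after HLU and Ppbp at 1084 ± 260.3 RPKM in control mice and 707 ± 282 RPKM after HLU (mean ± SD, n = 8 per group) the most abundant. The erythroid count was 2 of 10 genes after GC adjustment, which could not be made for Hbb-b1 and Hbb-b2 for want of a GC value, and 1 without the smallest libraries, Control 2 and HLU 5, and the platelet count was 4 in both. Of the erythroid calls, Hbb-b1 kept its call without any single mouse, and at least 1 of Klf1, Hbb-b2 and Rhag lost it without each of Control 1, Control 2, Control 3, Control 4, Control 6, Control 7, Control 8, HLU 1, HLU 4, HLU 5, HLU 6 and HLU 7, the count lying between 1 and 7, highest without HLU 2. Of the platelet calls, Pf4, Ppbp and Gp6 kept theirs without any single mouse, and Treml1 lost it without each of Control 2, Control 3, Control 5, Control 6, Control 7, Control 8, HLU 4, HLU 6, HLU 7 and HLU 8, the count lying between 3 and 6, lowest without Control 7 and HLU 7 in turn. Over all features, lower calls numbered 1385 without HLU 2, 513 without Control 7 and 474 without HLU 7, against 808 with all mice. After GC adjustment, lower calls numbered 467 of the 14774 features with a GC value. No gene of the erythroid or the platelet list was at 0 RPKM in any mouse. For 10 genes of dividing cells 0 were called, with sums of 367, 553 and 714 RPKM in control mice and 185, 365 and 646 RPKM after HLU and Mki67 at 183 ± 65.7 RPKM in control mice and 138 ± 62.5 RPKM after HLU (mean ± SD, n = 8 per group).

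Among the other blood cell lists, Mcpt8, 1 of 7 basophil and mast cell genes, and Vpreb3, 1 of 11 B cell genes, were lower by the unadjusted rule, against 4.76% of all features, and 0 genes were called in the monocyte and macrophage, eosinophil, and T and NK lymphocyte lists. Mcpt8 lost its call without each of Control 2, Control 4, Control 6, Control 7, HLU 1, HLU 4, HLU 5, HLU 6 and HLU 7 in turn. Vpreb3 kept its call without any single mouse and lost it with GC adjustment and the replicate block together (limma unadjusted p = 0.0543). The B cell count was 2 without Control 6, HLU 1 and HLU 3, 3 without HLU 2 and 5 without Control 5, and the basophil and mast cell count 2 without HLU 2 and 3 without Control 3 and Control 5, leaving out 1 mouse in turn. Over all features, lower calls numbered 808 with all mice, 509 without Control 6, 492 without HLU 1 and 1385 without HLU 2. They lay between 474 and 1385 on leaving out 1 mouse at a time. The B cell count was 2 with the replicate block, which called 840 features lower. The basophil and mast cell count was 2 after GC adjustment, which called 467 of 14774 features lower. Summed levels were 437, 485 and 677 RPKM in control mice and 283, 440.1 and 683 RPKM after HLU for monocytes and macrophages. They were 44.7, 94.4 and 166 RPKM in control mice and 34.7, 75.7 and 105 RPKM after HLU for B cells and 16.7, 30.3 and 42.5 RPKM in control mice and 10.7, 20.2 and 36.2 RPKM after HLU for T and NK cells. The eosinophil genes had 193, 517 and 1513 RPKM in control mice and 295, 531 and 677 RPKM after HLU, and the genes of basophils and mast cells 49.4, 85.6 and 109 RPKM in control mice and 27.9, 50.7 and 95.1 RPKM after HLU. The most abundant genes of these lists were Ly6c2, Cd79b, Trac, Prg2 and Mcpt8 in that order. Of the bone lists, Mepe, 1 of 12 osteoblast and osteocyte genes, was higher by the unadjusted rule, against 1.11% of all features, with sums of 962, 1546 and 2317 RPKM in control mice and 1270.3, 1517 and 2773 RPKM after HLU for osteoblasts and osteocytes and 774, 1191 and 2049.9 RPKM in control mice and 777, 1403 and 2019 RPKM after HLU for osteoclasts, where Ibsp and Ctsk were the most abundant. Fabp4 was called higher among 5 adipocyte genes, with a log2 fold change of 0.34 that was 0.23 and not called without Control 1, Control 4 and HLU 4. It was also not called without each of Control 1, Control 4, Control 6, HLU 1, HLU 4, HLU 5, HLU 6 and HLU 7 in turn, nor was Mepe without each of Control 1 and Control 6. The osteoblast and osteocyte count was 2 without each of Control 3, Control 8 and HLU 2 in turn, without Control 1, Control 4 and HLU 4, after median-of-ratios rescaling, after quantile normalization and after GC adjustment, with and without the replicate block. The adipocyte count was 2 without Control 5 and without HLU 3. Over all features, higher calls numbered 188 with all mice and none of these steps, 365 without HLU 2 and 310 without HLU 3. They numbered 375 after median-of-ratios rescaling, 460 after quantile normalization and 429 after GC adjustment. The adipocyte sums were 399, 541 and 739 RPKM in control mice and 477, 694 and 753 RPKM after HLU, and skeletal muscle genes were not analysed here. Of the marker genes named here, those that lost their call were Klf1, Hbb-b2, Rhag, Treml1, Mcpt8, Mepe and Fabp4 without the smallest libraries, and Rhag, Ppbp, Mcpt8 and Fabp4 without Control 1, Control 4 and HLU 4. With the replicate block they were Rhag, Mcpt8 and Fabp4, with GC adjustment Klf1, and with both together Klf1, Rhag, Mcpt8, Vpreb3 and Fabp4. They were Rhag, Treml1 and Mcpt8 after median-of-ratios rescaling, Rhag and Treml1 after quantile normalization, Hbb-b2 and Treml1 after rescaling to summed RPKM without mitochondrial genes, and Hbb-b2 and Fabp4 with no filter on low values. None of these calls passed the adjusted rule in limma, where the lowest adjusted p over all features was 0.256. The part of these cells in the values of the neutrophil genes was not tested.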

How the data were processed

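The authors aligned reads with TopHat2, per the methods and the submitters' processing notes, and deposited RPKM values per gene. The genome, mm9, is named in the processing notes and not in the methods. Strand setting and annotation version were not given in the sources used here. DESeq2 is named in the processing notes as the authors' tool and was not run here. Groups came from the sample labels. Values were tested as log2(RPKM + 0.1), keeping features whose mean reached 0.5 RPKM, with limma 3.58.1 in R 4.3.3 and a variance trend, two-sided, with Benjamini-Hochberg adjustment over 16973 features; fold changes are on that log2 scale, which understates changes of low genes. A check of the test on simulated data was made, and its outcome is not reported here. Single genes also had an exact permutation test over 12870 assignments, whose smallest p is 0.000155, and correlations a permutation test with 100000 resamples. Of 9 planned pairs those with Elane, Mpo or Cxcr2 could not be run. Whole reads were recovered from the RPKM steps for 100% of the features kept, within 0.01 read. GC content came from the longest coding transcript in GENCODE M21, with a value for 14774 features, and GC adjustment subtracted the median deviation within 20 bins. The 12 stage genes were described in full where present, other members by medians and fold change, genes of wider lists where past the unadjusted rule, and marker lists by summed level and most abundant gene. 1 gene that is counted in the megakaryocyte and platelet list is not reported here. Members and lists were chosen with earlier results of these data known. Alternatives were other pseudocounts, filters, rescalings, no trend, a replicate block, limma voom on recovered reads and leaving out mice. scipy 1.17.1 and pandas 2.3.3 were used in Python 3.11.15.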

Additional observations from a re-analysis of the deposited data

Results flagged for a closer look

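Il1b in HLU 2 was 13.4 RPKM, far from the other HLU mice. Asprv1 in Control 7 was 13.9 RPKM, far from the other control mice. The library of HLU 5 had 7838277 reads, far fewer than the other HLU libraries. These 3 are from 58 comparisons of a mouse with its group, and chance sets about 1 in 20 groups apart in this way.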

How the results depend on the processing

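Over 30 alternatives, 722 of 780 gene values kept their sign and their side of the unadjusted threshold, and the lowest adjusted p of a neutrophil gene was 0.459. The count of genes lower by the unadjusted rule was 0 in every alternative except leaving out 1 mouse, where it ranged from 0 to 2 (Csf3r and Clec4d without HLU 2, Clec4d without Control 5, Csf3r without HLU 3). Log2 fold changes that changed sign were with median-of-ratios rescaling Camp 0.045, Olfm4 0.029; with quantile normalization Gfi1 0.014, Camp 0.092, Lcn2 0.0062, Fcnb 0.030, Olfm4 0.079; with rescaling to summed RPKM without mitochondrial genes Cebpa 0.010, Gfi1 0.046, Ltf 0.054, Camp 0.099, Lcn2 0.0045, Fcnb 0.017, Olfm4 0.083, Retnlg 0.015, Trem1 4.2e-05; without the 2 smallest libraries Camp 0.0021; with GC adjustment Gfi1 0.0092, Ltf 0.013, Camp 0.055, Olfm4 0.039; without the 3 libraries with the steepest GC gradient Ms4a3 0.0073, Ltf 0.010, Olfm4 0.018, Serpinb1a 0.00065. GC adjustment with the replicate block gave the same values (Gfi1 0.0092, Ltf 0.013, Camp 0.055, Olfm4 0.039). Leaving out 1 mouse at a time gave Olfm4 -0.21 to 0.036, Ngp -0.13 to 0.16, Anxa1 -0.049 to 0.12, Camp -0.21 to 0.17, Ltf -0.22 to 0.026, Fcnb -0.26 to 0.038, Ms4a3 -0.27 to 0.014, Trem1 -0.30 to 0.0093. The cause of these changes was not tested. The replicate block left the median over the 26 genes at -0.15 and called 199 higher and 840 lower features. The labels give numbers only, and whether same-numbered mice were handled together is not known. Same-numbered mice correlated from -0.17 to 0.51, highest for number 4, and 1 of 8 control mice correlated best with its own number. These correlations cannot show whether the mice were paired. Over all features the unadjusted counts without one mouse ranged from 117 to 365 higher and 474 to 1385 lower, and under the other alternatives from 106 to 460 higher and 344 to 1048 lower. Confidence intervals of the 26 genes reached 0.29 to 0.76 log2 units to either side with 8 mice a group. These widths are not limits of detection, and the power to find a given difference was not measured.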
